A study of Brassica juncea with 21 samples.

Results

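Lateral nectaries of Brassica juncea, an oilseed mustard, were compared with leaf at the time of nectar secretion. The comparison took the deposited value of the lateral secretory nectary column and that of the leaf column for each transcript, as the difference of log2(value + 1). These are 2 of 7 group columns and stand for 6 of 21 libraries, 3 per group. Of 14398 transcripts in the table, 14390 from 13896 genes were compared. The 8 left out did not reach a value of 1 in at least 3 groups.

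Both groups came from plants about 40 days old, grown at 21 °C under 16 h of light at 200 µmol per square metre and second and 8 h of darkness. No treatment, mutant or transgene is named in the labels. Lateral nectaries were cut by hand from fully open flowers of primary inflorescences, 4 to 8 h after dawn, and about 100 of them, at most 4 from a flower, made an RNA sample. Replicates came from different sets of plants. Leaf was collected at the time of the secretory nectaries, and how leaf was handled is not described. Each value is a normalized whole-number score, and the table holds 1 per group. The difference therefore has no replicate spread, no test was made, and "higher" and "lower" mean at least 2-fold between the group values. A read number, at least 162 M, is stated for the pool of libraries and not for each of them, so the depth behind a single value is unknown.

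A nectary is a gland that draws sucrose from the phloem, partly stores it as starch, and releases it as nectar when the flower opens. In Arabidopsis, a relative of mustard, sucrose is made in nectary cells by sucrose-phosphate synthase, leaves them through the exporter SWEET9, and is split outside by the cell wall invertase CWINV4, which keeps sucrose and water moving out. Lateral nectaries sit at the base of the short stamens and yield most of the nectar in this plant family.

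Of the 14390 transcripts, 4259 (29.6%) were higher in lateral secretory nectary and 3984 (27.7%) were lower, and 6147 (42.7%) lay within 2-fold. The median difference was 0.10 with quartiles of −1.18 and 1.23. At 8-fold or more, 1261 (8.76%) were higher and 1083 (7.53%) lower. The column totals were 11071618 in nectary and 9644197 in leaf, and 51 and 130 transcripts were listed at 0. Transcripts with an Arabidopsis match leaned towards nectary and those without one towards leaf. Of 9605 with a match, 33.8% were higher and 22.7% lower (median 0.36). Of 4785 without a match, 21.2% were higher and 37.7% lower (median −0.41). Lists defined by Arabidopsis loci draw on the matched transcripts alone, while families defined by product name draw on both. Fewer cells of a type and less RNA per cell cannot be told apart in these bulk samples. The groups differ in organ as well as in secretion, which a comparison with leaf alone does not separate. Values of nectaries before and after secretion stand beside some of the results.

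**Figure D1:**
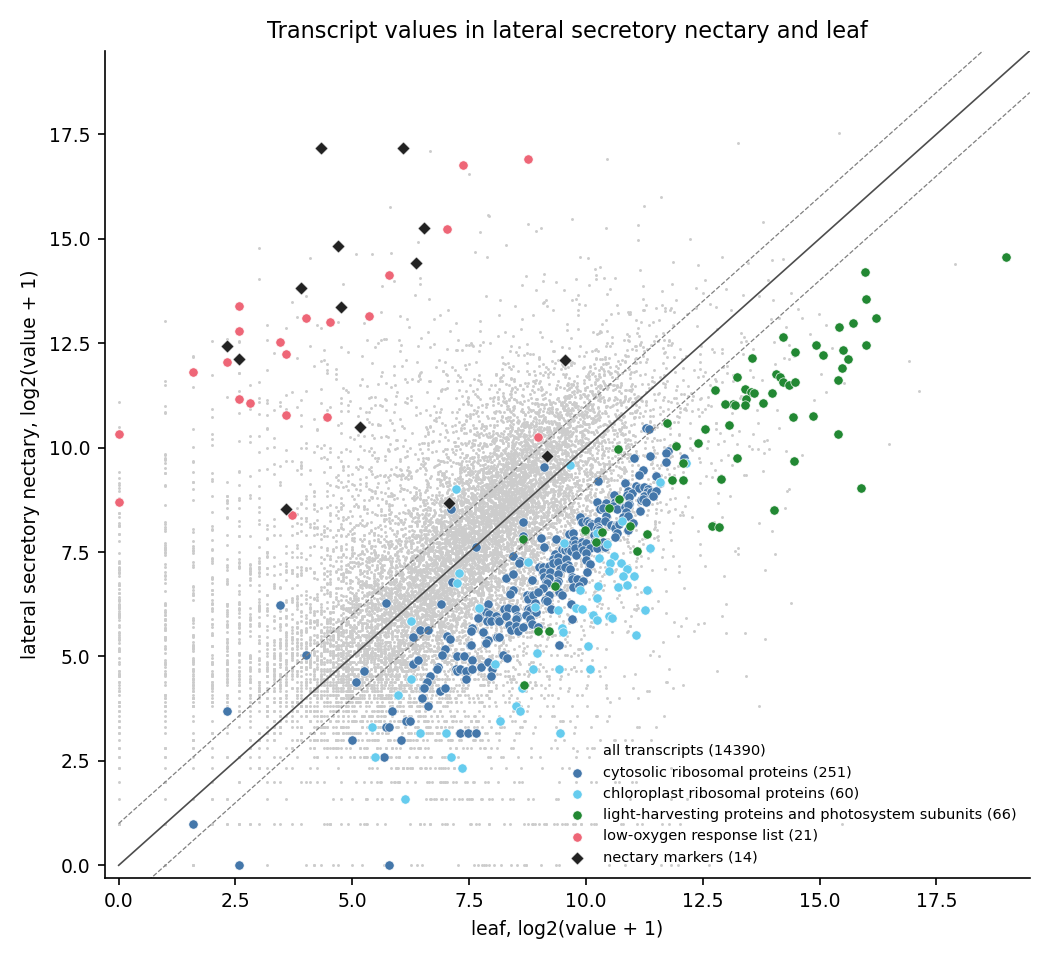
Each point is 1 transcript, with its leaf value on the horizontal axis and its lateral secretory nectary value on the vertical axis, both as log2(value + 1); the solid line marks equal values and the dashed lines 2-fold. Of 14 nectary marker transcripts 13 lie above the 2-fold lines, as do all 21 of the low-oxygen response list. Markers were chosen with earlier results known, and the low-oxygen list was written after several members had been seen to be high. All 24 light-harvesting transcripts and 40 of 42 photosystem subunits lie below them. The 251 cytosolic ribosomal protein transcripts form a narrow band with a median difference of −2.28.

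Nectary and mesophyll markers differed between the tissues in the direction of the labels. The lists were chosen with earlier results of these data known, so their counts are no test of the labels. Of 13 nectary markers 10 were measured, by 14 transcripts, of which 13 were higher and none lower, and their summed value was 1839 in leaf and 427133 in nectary. SWEET9 (LOC103857843) was listed at 19 in leaf and 147160 in nectary, and CWINV4 (LOC103865521) at 67 and 147338. CRC (LOC103831319), the YABBY factor without which Arabidopsis forms no nectaries, was listed at 92 and 39366. Of 8 mesophyll markers 7 were measured, by 10 transcripts, and all 10 were lower in nectary, with sums of 986324 in leaf and 47554 in nectary. Transcripts on the marker lists of other floral parts were higher as well. All 4 carpel and ovule transcripts, from 3 of 7 markers, were higher (sums of 97 and 30988). So were all 3 petal and stamen transcripts, from 3 of 6 markers (59 and 16486). Most of the carpel and ovule sum was the MADS-box gene SHP2 (LOC103866661), at 33 and 25226. Nearly all of the petal and stamen sum was another MADS-box gene, SEP1 (LOC103846385), at 58 and 16292. AP3 (LOC103863238) was at 1 and 188 and SEP3 (LOC103839053) at 0 and 6. STK, INO, SPT, BEL1, PI, TPS21 and SEP2 were not measured. Whether these values come from the nectary itself or from adjoining tissue was not tested. All 6 pollen transcripts, from 4 of 8 markers, were higher too, with sums of 179 and 6749. The 3 vascular transcripts, from SUC2 and PP2-A1 alone of 13 markers, were lower (5409 and 1572). Of 6 guard cell markers 1 was measured, the channel KAT1 (LOC103827743), at 76 and 215. No marker of tapetum or of epidermis and trichomes was measured (0 of 6 and 0 of 4).

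The 10 largest differences towards nectary among transcripts not at 0 in leaf began with SWEET9, at 12.85 on the log2 scale. Uncharacterized LOC103834478, whose Arabidopsis match is a lipid-transfer-like protein, was listed at 1 in leaf and 8354 in nectary. The lipid-binding protein AIR1B (LOC103858045) was listed at 7 and 27894. After CWINV4, at 11.08, came a short isoform-like glycine-rich protein 3 (LOC103865084), of a family of wall proteins, at 7 and 16841. LBD41 (LOC103843350), a LOB-domain transcription factor, was listed at 5 and 10707, and the MADS-box factor AGL12 (LOC103852713) at 2 and 4692. Uncharacterized LOC103841920 was listed at 1 and 3092 and a germin-like protein (LOC103850135), of a family of secreted proteins, at 3 and 5988. The list closed with WIN1 (LOC103842907), an activator of cutin and wax synthesis, at 1 and 2885. Of transcripts listed at 0 in leaf, the 5 highest in nectary were a SWEET5-like exporter (LOC103855024) at 2169, the growth repressor OFP4 (LOC103843486) at 1435, ERF071 (LOC103843716) at 1292, a MYB57-like factor (LOC103858909) at 685 and uncharacterized LOC103861800 at 621. In all, 40 transcripts were listed at 0 in leaf with at least 100 in nectary, and 23 the reverse.

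Towards leaf the largest difference was in the chloroplast carbonic anhydrase BCA1 (LOC103870985), at 45925 in leaf and 1 in nectary. Several of the others act in leaf metabolism. They were catalase-3 (LOC103835788), at 3173 and 1, the photorespiratory glycolate oxidase GLO2 (LOC103859574), at 2349 and 1, and cystine lyase CORI3 (LOC103861272), at 3489 and 1. A salicylate methyltransferase-like transcript (LOC103847297) was listed at 4566 and 2, and the NPF transporter 6.4 (LOC103835064) at 2195 and 1. The other 4 were methyltransferase-like protein 7A (LOC103831349), at 4136 and 1, histone methyltransferase ASHH4 (LOC103830237), at 3600 and 2, a glycine-rich protein 3 (LOC103860334), at 13272 and 13, and acid phosphatase 1-like (LOC103834722), at 1780 and 1. Transcripts named glycine-rich protein 3 thus lay near both ends of the range. Of transcripts at 0 in nectary, the highest in leaf were a glycine-rich protein 3 (LOC103860335), at 6389, the proline-rich DC2.15-like protein (LOC103848198), at 3991, gibberellin-regulated protein 6 (LOC103852917), at 3620, another copy of BCA1 (LOC103850064), at 3131, and squalene monooxygenase (LOC103865842), at 1815.

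Sucrose export and cleavage were carried by few members of each family. Of 9 SWEET transcripts, which encode sugar exporters, 5 were higher and 4 lower. Besides both variants of SWEET9, the higher ones were a pair of SWEET5-like copies and SWEET10 (LOC103857270), at 1 and 23. SWEET1-like (LOC103835747) was listed at 692 in leaf and 136 in nectary, SWEET12-like (LOC103874235) at 87 and 1, and both SWEET15 copies were lower. The family median of 3.58 was 0.62 when each gene counted by its most abundant variant, since SWEET9 has a pair of variants. As a share of the column total, SWEETs held 0.010% in leaf and 1.36% in lateral secretory nectary. Both SWEET5-like copies are also on the pollen marker list, and the part of pollen in their values was not tested.

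Invertases split by compartment. Cell wall invertases were higher, with CWINV4 at 11.08, its other copy (LOC103857608) listed at 2 and 1383, and CWINV3 (LOC103871058) at 47 and 2090, while CWINV6-like (LOC103846681) was listed at 0 and 1. The vacuolar invertase (LOC103843145) was lower, at 1556 in leaf and 7 in nectary, and the 6 neutral invertases named CINV ran from 2.92 to −1.60. In all, 6 of 11 invertases were higher and 3 lower, with CWINV6-like counted as higher by its step from 0 to 1. Both copies of sucrose synthase 1, which cleaves sucrose inside the cell with UDP, were higher by similar amounts. LOC103845641 was listed at 430 and 123226 and LOC103856465 at 129 and 38194, differences of 8.16 and 8.20. Sucrose synthase 3 (LOC103836763) was listed at 210 in leaf and 1 in nectary. Of the 6 sucrose-phosphate synthases and phosphatases, which make sucrose, 4 were higher and 1 lower. SPS3 (LOC103844199) was listed at 14 and 2260, an SPS1-like copy (LOC103851339) at 753 and 4399, and SPS4 (LOC103853568) at 1908 and 48.

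Sugar importers lay on both sides. Of 6 SUC sucrose importers 2 were higher and 3 lower, with SUC4 (LOC103871775) at 201 and 928 and the phloem loader SUC2 (LOC103840834) at 1297 and 376. Of 26 monosaccharide transporters 7 were higher and 9 lower (median −0.12), not far from the 29.6% and 27.7% of all transcripts. The largest difference towards nectary was that of STP7 (LOC103836783), at 69 and 2185, and towards leaf that of ERD6-like 2 (LOC103871627), at 82 and 0.

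**Figure D2:**
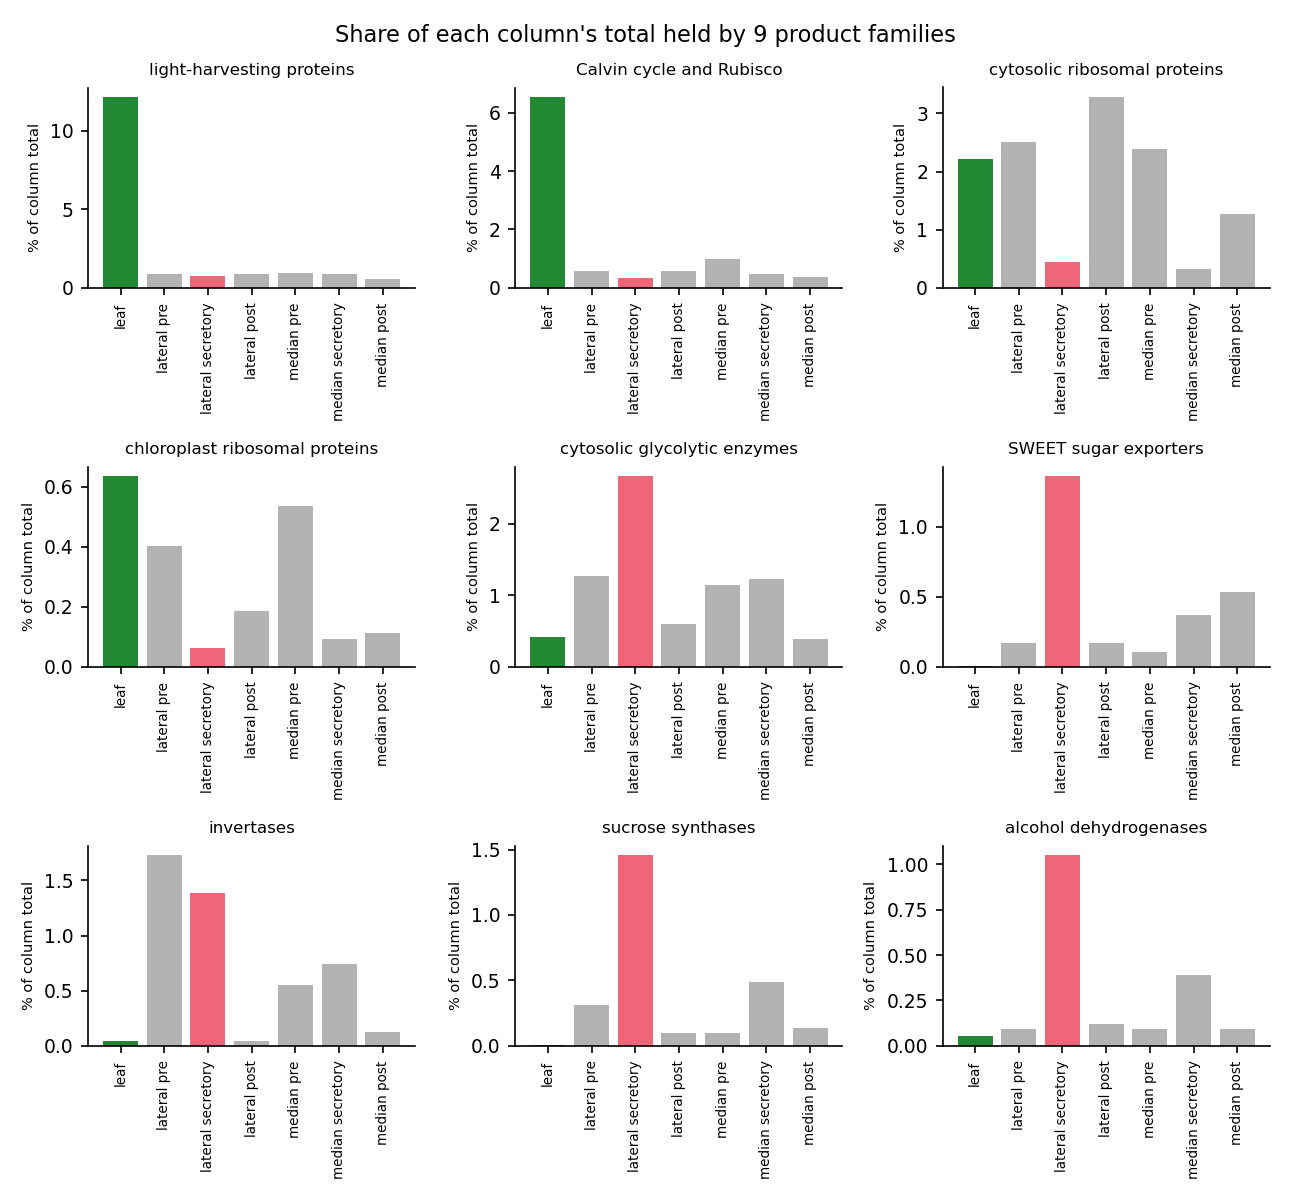
Bars give the percentage of each column's total held by a product family in the 7 groups, leaf in green, lateral secretory nectary in red and the other nectary groups in grey, each panel on its own axis from 0. SWEETs, sucrose synthases, glycolytic enzymes and alcohol dehydrogenases have their highest share in lateral secretory nectary, and cytosolic ribosomal proteins hold 0.448% there against 2.22% in leaf.

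The steps that follow sucrose cleavage were higher as a group. Of 38 cytosolic glycolytic transcripts, 23 were higher and 7 lower (median 1.52), and their share of the column was 0.420% in leaf and 2.67% in nectary. Cytosolic GAPDH (LOC103836104) was listed at 9741 and 159683, aldolase (LOC103850273) at 2211 and 41461, and enolase 2 (LOC103865552) at 2203 and 32242. The phosphofructokinases PFK6 (LOC103850396) and PFK3 (LOC103866006), at the committing step, were listed at 4 and 4266 and at 18 and 7813. Members were not uniform. PFK1 (LOC103853791) was lower at 1224 and 357, another aldolase named cytoplasmic (LOC103866289) was listed at 1824 and 7, and the non-phosphorylating NADP-GAPDH (LOC103864532) at 7625 and 654. Hexokinase 1-like (LOC103837987) was listed at 919 and 11060, with 5 of 8 hexokinases and fructokinases higher and 2 lower.

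Fermentation enzymes were far above leaf. Pyruvate decarboxylase 2 (LOC103844946), which turns pyruvate into acetaldehyde, was listed at 238 in leaf and 48566 in nectary. Alcohol dehydrogenase class-P (LOC103832166), matched to Arabidopsis ADH1 and the next step to ethanol, was listed at 164 and 112027, a difference of 9.41. The other 3 alcohol dehydrogenase transcripts had differences of 0.02, −0.18 and −1.63, and 2 of them are of class 3, which acts on formaldehyde adducts. ADH1 lies on Arabidopsis chromosome 1 from 28975509 to 28977216, forward strand, in the positions given by the table, for which no build is named.

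These enzymes belong to a wider group that Arabidopsis seedlings induce in every cell type when oxygen is scarce. In that response, ERF factors of group VII are stabilised, sugar is sent through glycolysis and ethanol fermentation, and haemoglobin and cysteine oxidases adjust the signal. A list of 25 Arabidopsis loci of this response was written after several members, among them ADH1, SUS1, PFK6, LBD41, HRE2, ACO1 and TPPJ, had been seen to be high, so its count supports nothing on its own. Of the 25 loci, 18 were measured by a transcript matched to that locus alone. All 21 such transcripts were higher in lateral secretory nectary and none lower, with a median of 8.57. The share higher was 29.6% of all transcripts and 33.8% of those with an Arabidopsis match. Setting the list against these shares is no test, since it was written with values known. Their differences ran from 1.28 to 10.80, and 18 reached at least 7. Together they held 0.015% of the leaf column and 3.30% of the lateral secretory one.

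Among regulators, both LBD41 copies (LOC103843350 and LOC103858968) were listed at 5 and 10707 and at 5 and 7143, differences of 10.80 and 10.22. HRE2 (ERF071, LOC103843716), a group VII ERF, was listed at 0 in leaf and 1292 in nectary. Both HRA1 copies, which encode a trihelix factor that dampens group VII ERFs, were listed at 15 and 8798 (LOC103870494) and at 11 and 4845 (LOC103859272). The plant cysteine oxidases PCO1 (LOC103856111) and PCO2 (LOC103863926), which use oxygen to mark group VII ERFs for breakdown, were listed at 22 and 8279 and at 5 and 2275. Among effectors, the haemoglobin PGB1 (LOC103846064), which consumes nitric oxide, was listed at 6 and 2152. The ethylene-forming oxidase ACO1 (LOC103828296) was listed at 2 and 3569, the ethylene receptor ETR2 (LOC103833878) at 0 and 411, and the trehalose-phosphate phosphatase TPPJ (LOC103873941) at 40 and 9129. The calcium-binding CML38 (LOC103830603) was listed at 11 and 1753. The smallest difference was in the NADPH oxidase RBOHD (LOC103874915), at 503 and 1221. Alanine aminotransferase (LOC103872517), which matched ALAAT1 and 1 other locus and was not counted, was listed at 884 and 12009.

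In the other nectary columns these 21 transcripts summed to 28774 before secretion and 31308 after it in lateral nectaries, and to 126796 in median secretory nectaries, against 365117 in lateral secretory nectaries and 1449 in leaf. The lateral secretory value was the highest of the 7 columns for 19 of 21. Oxygen was not measured in this study. Of 95 transcripts of mitochondrial respiratory subunits, which consume it, 73 lay within 2-fold, with a median of 0.37. Of the others 21 were higher and 1 lower, below the overall shares of 29.6% and 27.7%. The subunits held 0.392% of the leaf column and 0.624% of the lateral secretory one. In lateral nectaries they held 1.69% before secretion and 0.557% after it. A link of these values to oxygen was not tested.

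**Figure D3:**
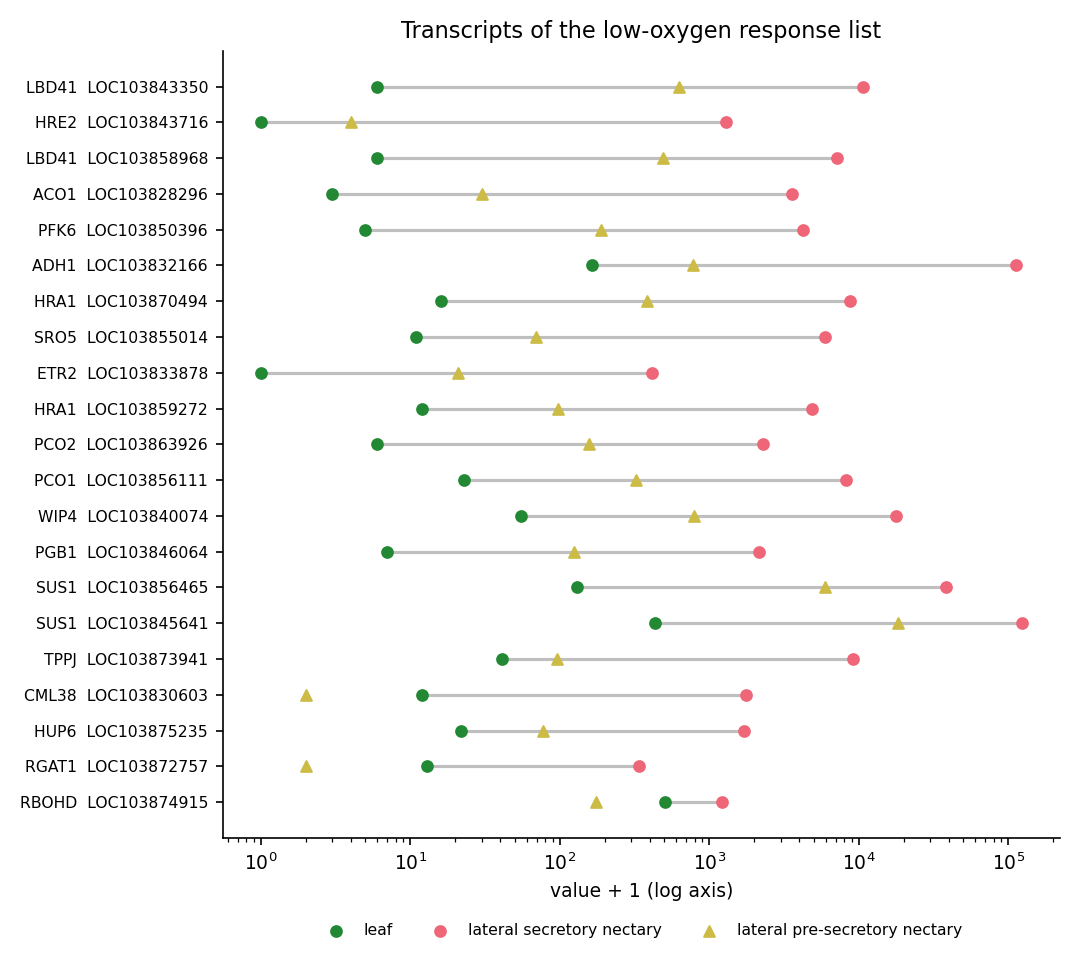
Values plus 1, on a log axis, of the 21 transcripts of the low-oxygen response list in leaf (green), lateral secretory nectary (red) and lateral pre-secretory nectary (yellow triangles), ordered by the difference from leaf. All 21 red points lie to the right of the green ones, and 18 of the triangles lie at least 2-fold above leaf.

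Starch enzymes were lower on the whole. Of 13 starch synthesis transcripts 2 were higher and 9 lower (median −2.29). Granule-bound starch synthase (LOC103874772), which makes amylose, was listed at 8903 in leaf and 1252 in nectary, and a large subunit of ADP-glucose pyrophosphorylase (LOC103845771), which makes the sugar donor, at 778 and 1. Among 23 transcripts of starch degradation 3 were higher and 13 lower (median −1.58, and −0.87 among transcripts with an Arabidopsis match). The member with the highest listed values, not divided by length, went the other way. Beta-amylase 1 (LOC103828653), which releases maltose, was listed at 4802 and 32351, so that the family held 0.141% of the leaf column and 0.356% of the nectary one. Trehalose-phosphate enzymes, which set the level of a sugar signal, had 8 of 14 higher and none lower (median 1.65), with a trehalose-phosphate phosphatase B-like transcript (LOC103832235) at 5 and 3514.

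Membrane pumps differed by type. All of the 13 calcium pumps past 2-fold, of 16, were higher (median 2.15), with ACA13 (LOC103834245) at 11 and 2449 and an endoplasmic reticulum pump (LOC103836850) at 148 and 2339. ACA9 (LOC103859893), at 40 and 2324, is a pollen marker as well. Of 9 plasma membrane proton ATPases, which power sugar and ion transport, 4 were higher and 3 lower. AHA1 (LOC103828351) was listed at 7729 and 24320 and the ATPase named 3 (LOC103845176), which matches AHA2, at 814 and 6357, while ATPase 11 (LOC103855020) was listed at 379 and 3. Vacuolar proton ATPase subunits had 26 of 31 within 2-fold. Plasma membrane aquaporins had 5 of 15 higher and 4 lower, near the 29.6% and 27.7% of all transcripts. PIP2-7-like (LOC103862390) was listed at 21 and 849 and PIP2-2 (LOC103867220) at 4320 and 19.

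Vesicle trafficking families had few lower members, and coat proteins had the most higher ones. Of 44 COPI and COPII coat transcripts, which shape vesicles between endoplasmic reticulum and Golgi, 21 were higher and none lower (median 0.95, highest 2.41). SNAREs, which fuse vesicles, had 16 of 46 higher and 3 lower (median 0.59), with syntaxin-21 (LOC103846293) at 278 and 2307. Rab GTPases had 20 of 57 higher and 5 lower, and exocyst subunits, which tether vesicles at the cell surface, 9 of 25 and 2. The shares of higher members in these last 3 families were near the 29.6% of all transcripts. Of 53 transcripts of translocation and folding in the endoplasmic reticulum 37 lay within 2-fold, 5 were higher and 11 lower (median −0.42), below the overall shares of 29.6% and 27.7%.

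Chloroplast transcripts were lower nearly throughout. All 24 light-harvesting transcripts were lower (median −3.51), and so were 40 of 42 photosystem subunits (−2.40), 17 of 19 Calvin cycle transcripts (−4.08) and 18 of 22 of chlorophyll synthesis (−2.11), with 0, 0, 2 and 1 higher. A Rubisco small subunit (LOC103863779) was listed at 243822 in leaf and 21388 in nectary. Light-harvesting transcripts held 12.1% of the leaf column and 0.779% of the nectary column, and photosystem subunits 5.56% and 0.976%. Photosystem transcripts thus kept a larger part of their leaf share than Calvin cycle ones, which held 6.53% and 0.335%. Photorespiration had 15 of 25 lower and 5 higher. Glycine cleavage H protein 2 (LOC103857558), of the mitochondrial glycine cleavage system, stood out among the higher ones at 18 and 308. Of 11 carbonic anhydrases 7 were lower, and alpha carbonic anhydrase 1 (LOC103841201) was the higher one, at 126 and 1495.

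Cytosolic ribosomal proteins were the largest family by number of transcripts, and their differences lay close together. Of 251 for cytosolic ribosomes, 232 were lower and 4 higher, with a median of −2.28 and quartiles of −2.61 and −1.91. RPL5 (LOC103828552) was listed at 4390 in leaf and 861 in nectary. An acidic P2 protein (LOC103854194) was among the 4 higher ones, at 138 and 366. The share of the column was 2.22% in leaf and 0.448% in lateral secretory nectary, and it was 2.51% before secretion and 3.28% after it in lateral nectaries and 0.320% in median secretory nectaries. The result was alike in transcripts with an Arabidopsis match (143 of 154 lower, median −2.23) and without one (89 of 97, −2.40). Chloroplast ribosomal proteins had 55 of 60 lower and 1 higher (median −3.78).

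Other parts of the translation machinery, grouped after their values had been seen, did not all lie where the ribosomal proteins did. Translation elongation factors, of cytosol and organelles, had 16 of 23 lower and none higher (median −2.15), with cytosolic EF1-alpha (LOC103856560) at 10981 and 6040 and chloroplast EF-G (LOC103838370) at 3802 and 56. Subunits of the cytosolic chaperonin, which folds actin and tubulin, were lower in 13 of 14 cases (−1.74). Nucleolar proteins, which serve ribosome assembly, had 16 of 30 lower and 4 higher (−1.28). Translation initiation factors had 9 of 61 lower and 8 higher (−0.17), and eIF5A-2 (LOC103835605) was listed at 7078 and 10587.

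**Figure D4:**
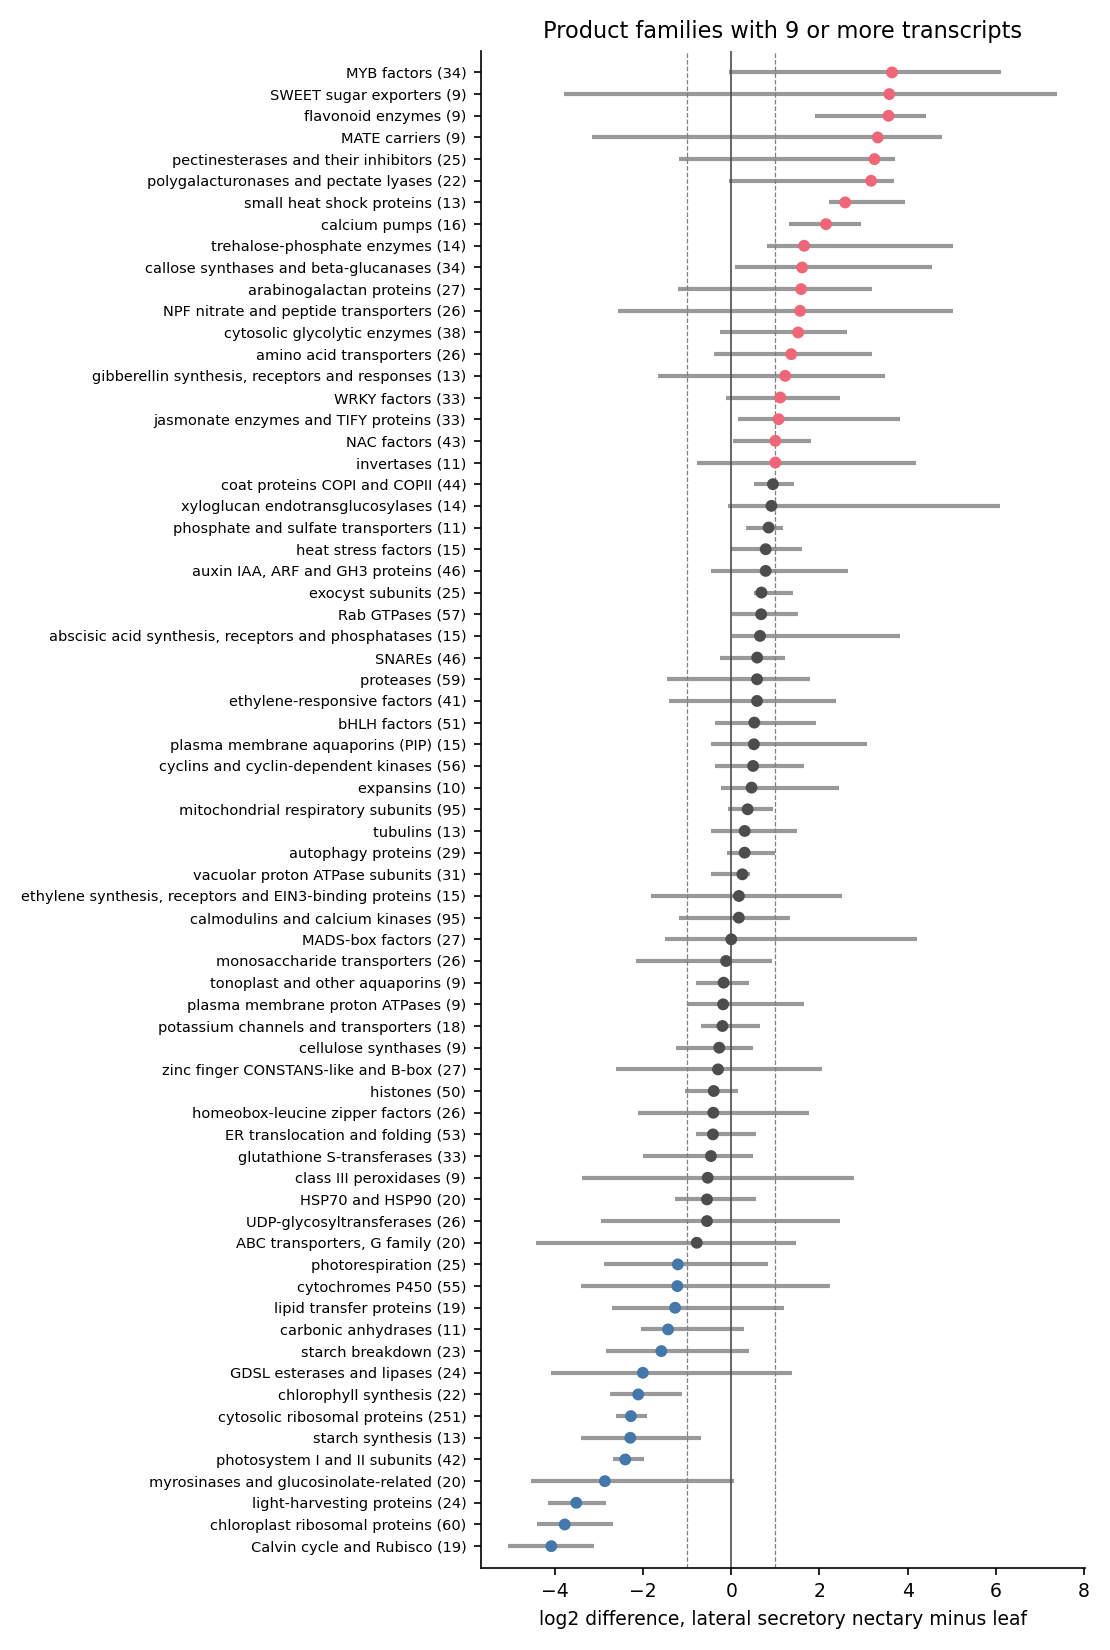
Median (dot) and quartiles (bar) of the log2 difference between lateral secretory nectary and leaf for product families with 9 or more transcripts, the number in brackets; dashed lines mark 2-fold, and red and blue dots are medians of at least 1 and at most −1. Photosynthesis and ribosomal protein families lie at the low end with narrow bars. MYB factors, SWEETs, pectin enzymes and transcripts named as flavonoid enzymes lie at the high end, several with bars that cross 0.

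Transcription factor families differed in how one-sided they were. MYB factors had 23 of 34 higher and 7 lower (median 3.65). MYB21 (LOC103875192), which acts in petal, stamen and nectary maturation in Arabidopsis, was listed at 25 and 28921 and its other copy (LOC103837005) at 5 and 4454. MYB57-like (LOC103870993) was listed at 4 and 5559. Both MYB44 (LOC103829517), at 65 and 5583, and MYB3-like (LOC103829318), at 444 and 4807, a repressor of phenylpropanoid genes, were higher. All 3 YABBY transcripts were higher, with YABBY 5 (LOC103858348) at 114 and 4359. Of 27 MADS-box factors 11 were higher and 9 lower (median 0.00), and both AGAMOUS copies, SEP1 and AP3 stood outside this family by their product names. The higher members held SHP2, SHP1 (LOC103830183), of carpels, at 9 and 1207, and both AGL18 copies (LOC103863049 and LOC103841644), at 44 and 855 and at 15 and 318. The lower ones held AGL6 (LOC103866912), a floral gene, at 128 and 10. The flowering-time repressor SVP (LOC103837880), at 629 and 13, and the SOC1-like LOC103858179, at 1157 and 415, were lower too. The 3 FLC-like copies lay within 2-fold.

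Boundary, homeodomain and zinc finger factors added further members. CUC3 (LOC103832101), which separates organs at their bases, was listed at 1 and 847, and BOP2 (LOC103865880), a co-regulator needed for nectary formation in Arabidopsis, at 11 and 366. NAC factors as a whole had 22 of 43 higher and 7 lower (median 1.00), with NAC29 (LOC103831344), the match of the leaf senescence regulator NAP, at 637 and 1. WRKY factors had 17 of 33 higher and 4 lower, led by WRKY27 (LOC103852074) at 52 and 2994. Homeobox-leucine zipper factors were split at 9 of 26 higher and 11 lower, with the epidermal type HDG10-like (LOC103846254) at 63 and 6054. Dof zinc finger factors, grouped after their values were seen, had 18 of 24 higher and 1 lower (median 2.13), with DOF2.5-like (LOC103858223) at 39 and 2844. SCARECROW-like factors, grouped likewise, had 11 of 19 higher and 3 lower, with SCL8 (LOC103852095) at 7 and 2183. PIF5 (LOC103841766), a light-controlled bHLH factor, was listed at 1585 and 3.

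Hormone families held members far apart in both directions. Jasmonate enzymes and TIFY proteins had 19 of 33 higher and 5 lower (median 1.07). The 3 copies of jasmonate methyltransferase, which makes volatile methyl jasmonate, were listed at 81 and 21729 (LOC103872765), 14 and 14498 (LOC103835835) and 26 and 10589 (LOC103829478). Of 15 transcripts of ethylene synthesis, receptors and EIN3-binding proteins, 6 were higher and 5 lower. The 3 higher ones outside synthesis were the receptors ETR2, named above, and ETR1 (LOC103831098), at 345 and 1619, and EIN3-binding F-box protein 2 (LOC103874395), which limits the ethylene response, at 659 and 2764. Besides ACO1 of the low-oxygen list, the oxidase ACO4 (LOC103844184) was listed at 206 and 2383, while the synthase ACS6 (LOC103833884), which makes the precursor, was listed at 3266 and 11. Gibberellin-related transcripts had 9 of 13 higher and 4 lower, with gibberellin-regulated protein 1 (LOC103832021) at 830 and 45211 and protein 6 (LOC103852917) at 3620 and 0. Auxin IAA, ARF and GH3 proteins had 22 of 46 higher and 9 lower, the 4 GH3 enzymes, which conjugate auxin, among the higher ones. They held IAA6 (LOC103871179) at 1 and 673 and IAA2-like (LOC103834036) at 274 and 6. Abscisic acid genes had 7 of 15 higher and 1 lower, with the receptor PYL9 (LOC103844644) at 139 and 3885.

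Cell wall families that act on pectin and callose were higher in most members. Pectinesterases and their inhibitors had 17 of 25 higher and 7 lower (median 3.25), and polygalacturonases and pectate lyases, which cut pectin, 14 of 22 and 3 (3.17). Pectinesterase/pectinesterase inhibitor 6 (LOC103840789) was listed at 71 and 8660. Callose synthases and beta-glucanases, which lay down and remove callose, had 22 of 34 higher and 3 lower. Callose synthase 8 (LOC103870013) was listed at 84 in leaf and 30942 in lateral secretory nectary, and at 354 in median secretory nectary. AGL12, named above, was likewise listed at 121 in the median secretory column. Xyloglucan endotransglucosylases had 6 of 14 higher and 3 lower, with XTH24 (LOC103834679) at 311 and 29585, and cellulose synthases 2 of 9 and 3.

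Pollen carries its own pectin enzymes and arabinogalactan proteins, and the pollen markers were higher beside these families. VGD1 copies (LOC103858231 and LOC103866408), pectinesterases of pollen tubes, were listed at 81 and 698 and at 35 and 611, and an arabinogalactan protein matched to AGP6 (LOC103858897) at 20 and 276. Arabinogalactan proteins had 16 of 27 higher and 8 lower. The part of pollen in the values of the wall families and calcium pumps was not tested.

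Of the surface lipid families, 3-ketoacyl-CoA synthases, GDSL esterases and lipid transfer proteins were lower in most members. All 7 3-ketoacyl-CoA synthases, which elongate fatty acids for wax, were lower (median −4.13). KCS5 (LOC103840573) was listed at 3579 in leaf and 1283 in nectary. GDSL esterases had 14 of 24 lower and 7 higher, and lipid transfer proteins 11 of 19 and 5. The GDSL transcript ESM1-like (LOC103870050) was listed at 14593 and 42, and others at 13 and 4525 (LOC103848263) and at 64 and 9061 (LOC103834690). Lipid transfer transcripts named DIR1 were listed at 88 and 6294 (LOC103856989) and at 91 and 25 (LOC103844982). AIR1B and LOC103834478, named above and far higher in nectary, stood outside the lipid transfer family by their product names. ABCG transporters, which export surface lipids and other compounds, had 10 of 20 lower and 6 higher. ABCG1 (LOC103867051) was listed at 20 and 4372, and ABCG22-like (LOC103850624) at 1669 and 3.

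Families of specialised metabolism, grouped by product name, differed in direction. Transcripts named as flavonoid enzymes had 7 of 9 higher and 1 lower (median 3.57), but the Arabidopsis matches of several are other enzymes. Chalcone synthase 3-like (LOC103850907), which matches the entry enzyme of the flavonoid pathway, was listed at 199 in leaf and 4246 in nectary, and a flavonol synthase (LOC103847177) that matches FLS1 at 195 and 868. A transcript named dihydroflavonol reductase (LOC103862234), at 176 and 2095, matches a farnesol dehydrogenase gene, and a chalcone synthase-like one (LOC103833867), at 2 and 251, matches LAP5, which makes pollen wall precursors. Those named leucoanthocyanidin dioxygenase-like (LOC103847060), at 2 and 426, and flavonol synthase-like (LOC103855634), at 29 and 585, match jasmonate oxidases. Myrosinase and glucosinolate transcripts had 12 of 20 lower and 4 higher (median −2.87, and −1.16 among transcripts with an Arabidopsis match). The epithiospecifier protein (LOC103871085), which steers glucosinolate breakdown towards nitriles, was listed at 42 and 25572. CYP83A1 (LOC103863599), of glucosinolate synthesis, was listed at 1720 and 1. Cytochromes P450 as a whole had 28 of 55 lower and 20 higher, with a median of −1.22 that was 0.82 among transcripts with an Arabidopsis match. The flower-expressed CYP76C3-like (LOC103866904) was listed at 13 and 8903. Of 9 class III peroxidases 4 were higher and 4 lower, with peroxidase 42 (LOC103859651) at 6649 and 632. The ferroxidase LPR1 (LOC103840803), noted after its value was seen, was listed at 101 and 139414.

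Among carriers, amino acid transporters leaned towards nectary, while NPF and MATE transporters went both ways. NPF nitrate and peptide transporters had 14 of 26 higher and 10 lower, both above the overall shares of 29.6% and 27.7%. The nitrate sensor and transporter NPF6.3 (LOC103843153) was listed at 131 and 10114 and NPF4.3 (LOC103838583) at 73 and 7602. Amino acid transporters had 14 of 26 higher and 5 lower (median 1.36), with amino acid permease 1 (LOC103828954) at 1507 and 6455. MATE efflux carriers had 5 of 9 higher and 4 lower, with LOC103868577 at 737 and 14106.

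Small heat shock proteins, chaperones that bind unfolding proteins, were all higher, 13 of 13, with a median of 2.58. The 18.1 kDa class I member (LOC103851557) was listed at 7 in leaf and 943 in nectary, and the smallest difference was 1.80. Their regulator HSFA2 (LOC103858372) was listed at 84 and 3113, and at 6 before and 39 after secretion in lateral nectaries. HSP70 and HSP90 transcripts did not share this, with 3 of 20 higher and 8 lower (median −0.55). HSP90-2-like (LOC103851857) was listed at 3300 and 10431.

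Cell cycle and turnover families lay near the middle. Cyclins and cyclin-dependent kinases had 21 of 56 higher and 6 lower (median 0.50), with the cell cycle inhibitor SMR3-like (LOC103829773) at 29 and 1888. All 4 MCM transcripts, of replication licensing, were within 2-fold, but at low values in both groups. MCM5 (LOC103860343) was listed at 19 and 25, and the others did not exceed 7 in either group. In lateral nectaries before secretion MCM5 was listed at 393. Histones had 14 of 50 lower, among them histone H1 (LOC103837838) at 10614 and 647, and 3 higher. Their share of lower members was near the 27.7% of all transcripts, and that of higher members was below the 29.6%. Proteases had 23 of 59 higher and 17 lower, and autophagy proteins 7 of 29 and 1.

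Copies of a gene could lie on opposite sides. Among 1171 Arabidopsis loci matched by at least 2 Brassica rapa genes, all copies were higher for 291 and all lower for 163, and copies went past 2-fold in opposite directions for 40. The median spread between copies was 0.68 on the log2 scale. The Kunitz-type protease inhibitors matched to 1 locus, which block digestive proteases, were the widest case. LOC103852769 was listed at 5 in leaf and 2611 in nectary, LOC103831736 at 795 and 2447, and LOC103831734 at 3625 and 4. Acid phosphatase 1 was listed at 64 and 189 in LOC103861884 and at 1780 and 1 in LOC103834722. Lipoxygenase 2, which opens jasmonate synthesis, was listed at 995 and 2487 in LOC103830993 and at 4052 and 128 in LOC103830390. Brassica juncea is polyploid, and copies of its own that share a Brassica rapa match cannot be told apart in this table.

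**Figure D5:**
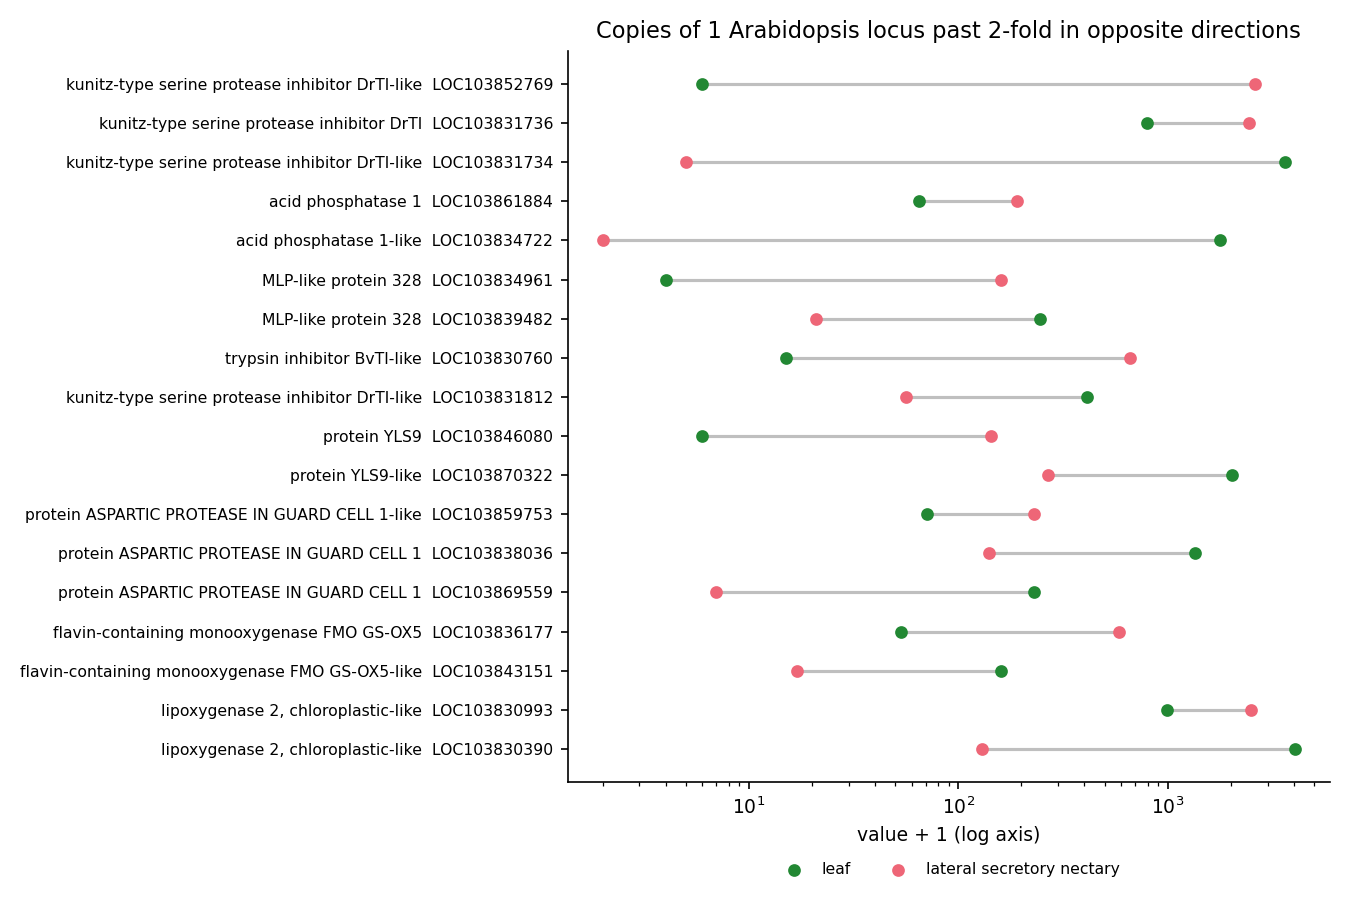
Values plus 1, on a log axis, in leaf (green) and lateral secretory nectary (red) of genes that match the same Arabidopsis locus and differ past 2-fold in opposite directions, for the 8 loci with the widest spread between copies; lines join the values of 1 gene. Within each locus at least 1 gene has its red point to the right and 1 has it to the left.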

How the data were processed

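RNA-seq libraries were made by the authors from nectaries and leaf with a TruSeq kit and sequenced as paired 50 bp reads in 2 lanes, per the labels. For each transcript the authors deposited a score per group, a whole number in a column that, per the file headers, is marked UQN, read here as upper-quartile normalized. This mark is missing from the head of the lateral post-secretory column. Sources used here do not name an aligner, a counting method or filters, nor how 3 libraries became 1 value. Each line is a Brassica rapa transcript, with a product name and often an Arabidopsis match.

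Computation used Python 3.11.15, pandas 2.3.3 and numpy 2.4.6, and figures matplotlib 3.10.9. The filter required a value of 1 or more in 3 or more of the groups, and differences were taken as log2(value + 1). The counting was checked on simulated data. All 81 families were product-name patterns, 80 with a transcript and terpene synthases with none, and held 2248 transcripts (15.6%). The patterns were corrected after products and values had been seen. Members and lists were chosen with earlier results of these data known, and the low-oxygen list and the families named as such were added after their values were seen. Text names the 10 largest differences each way with at least 100 in the higher group, the 5 highest values against 0, family members that were most abundant or extreme, and markers. Others were chosen after their values were seen, from the same families. With 1 value per group there was no test, and depth and precision are unknown. Alternatives changed the pseudocount, filter, scaling, threshold and unit counted.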

Additional observations from a re-analysis of the deposited data

Results flagged for a closer look

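Of 247 named transcripts, 2 lay at least 2-fold from leaf in opposite directions in the secretory nectary types. The difference between the types was not tested, since each group has 1 value. SWEET1-like (LOC103835747), a sugar transporter, was listed at 692 in leaf, 136 in lateral secretory nectary and 16200 in median secretory nectary, log2 differences from leaf of −2.34 and 4.55. The probable pectinesterase/pectinesterase inhibitor 16 (LOC103866037) was listed at 184, 1 and 488, differences of −6.53 and 1.40. Both types are set against the same leaf value.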

How the results depend on the processing

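The counts of higher and lower transcripts, 4259 and 3984, were 3912 and 3680 with a pseudocount of 10, 4262 and 3988 without the filter, 3738 and 3612 with a value of at least 50 in either group, 3952 and 4116 after quantile normalization and 4059 and 3909 with 1 transcript per gene. A 4-fold threshold gave 2145 and 2179, which follows from its construction. With columns scaled to the same total the median of all transcripts shifted by −0.20 and the counts were 3690 and 4453. Transcripts with an Arabidopsis match, an alternative chosen after seeing the data, gave 3245 and 2179 of 9605, and in it the median of cytochromes P450 reversed from −1.22 to 0.82; the cause was not tested. Of 93 family medians, 10 moved by over 1.5-fold with a pseudocount of 10, 2 with one of 0.1, 0 without the filter or with the same total, 2 after quantile normalization, 3 with 1 transcript per gene and, besides the reversed one, 26 among matched transcripts. With at least 50 in either group 16 of 92 moved, by up to 3.61. Medians no longer past 2-fold numbered 5 with a pseudocount of 10, 5 with the same total, 4 after quantile normalization, 3 with at least 50, 2 with 1 transcript per gene and 4 among matched transcripts. The invertase median of 1.00 was 0.14 with a pseudocount of 10. The low-oxygen list, written with values known, kept a median between 8.02 and 8.77. All 30 named transcripts of largest difference kept their direction under every alternative that gave them a value. No paired analysis was possible because the table holds 1 value per group and no column per library, and no replicate could be left out for the same reason. Low values limit the size of single differences: with a pseudocount of 10, 28 of these 30 moved by over 1.5-fold.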

Other observations

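Families added after the values had been seen, from product names shared by at least 10 transcripts, held further members. F-box/kelch-repeat proteins, substrate adaptors for protein breakdown, had 37 of 61 transcripts higher in lateral secretory nectary and 5 lower, with a median of 1.17. The At3g18720-like member (LOC103828338) held the highest value of the lateral secretory column, 190392, and was listed at 43958 in leaf and 1477508 in median secretory nectary. Both At3g61590-like copies, which match HAWAIIAN SKIRT, a gene that keeps sepals from fusing, were listed at 44 and 5406 (LOC103841982) and at 15 and 2610 (LOC103862820) in leaf and nectary. Pentatricopeptide repeat proteins, which process organelle RNA, went the other way with 36 of 68 lower and 14 higher. The member with the highest listed values (LOC103843443) was listed at 8242 and 14209. Oleosin S2-2 (LOC103837001), a lipid droplet protein, was listed at 4 in leaf and 2361 in nectary.

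Among 477 genes with at least 2 transcript variants, variants went past 2-fold in opposite directions in 2. UBP1-associated protein 2A (LOC103841585), an RNA-binding protein, had its variant X1 at 1145 in leaf and 3539 in nectary and its variant X2 at 94 and 37. The clock gene PRR5 (LOC103874318) had a pair of transcripts, at 40 and 1567 and at 1341 and 329. The bulk of its signal thus lay in different transcripts in the 2 tissues. Sources used here do not say how reads were divided between variants.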
